A study of Homo sapiens with 16 samples.

Results

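The RNA of 10 CXC chemokines (CXCL1, CXCL2, CXCL3, CXCL5, CXCL6, CXCL8, CXCL10, CXCL12, CXCL14 and CXCL16) was followed in mesenchymal stromal cells (MSCs) made senescent with mitomycin C. The 10 genes were taken as a family by name and found in the count table by matching its Ensembl identifiers to GENCODE symbols. The table held 60649 genes, 19103 of which had enough reads to be tested, and all 10 chemokines were among those tested. The cells were ASC52telo, a wild-type ("wt") human adipose MSC line immortalised with telomerase, so every library comes from 1 line and says nothing of the spread between donors. Mitomycin C (MmC), which crosslinks DNA and stops division, was given at 1.5 µg/mL for 18 h. GDF11, a secreted factor of the TGF-beta family, was added at 10 ng/mL over the 10 days after MmC, and RNA was taken at day 10. There were 4 groups of 4 libraries each: no treatment (MmC-/GDF11-), GDF11 alone (MmC-/GDF11+), MmC alone (MmC+/GDF11-), and MmC followed by GDF11 (MmC+/GDF11+). The study describes the 4 replicates of a group as biological, without saying what set them apart, so p-values measure the spread between these libraries of 1 line.

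Chemokines are small secreted proteins that steer migrating cells through receptors of the G protein-coupled class, and CXC chemokines carry one residue between their first cysteines. Members with a glutamate-leucine-arginine (ELR) motif before that pair act on CXCR1 and CXCR2 and attract neutrophils, whereas CXCL10 acts on CXCR3 of activated lymphocytes and CXCL12 acts on CXCR4 and is the signal by which marrow stroma holds blood-forming cells. Senescent fibroblasts and stromal cells are known for a secretory phenotype in which the ELR chemokines, CXCL8 (interleukin-8) above all, are prominent, and the transcription factor NF-kappaB drives many of these genes.

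The 6 ELR members studied (CXCL1, CXCL2, CXCL3, CXCL5, CXCL6 and CXCL8) lie together on chromosome 4, within 358.678 kb from CXCL8 to CXCL2 (GRCh38, chr4:73740519-74099196). CXCL8 (73740519-73743716), CXCL6 (73836640-73849064) and CXCL1 (73869393-73871308) are read from the plus strand, and CXCL5 (73995642-73998677), CXCL3 (74036589-74038807) and CXCL2 (74097040-74099196) from the minus strand. CXCL10 (chr4:76021118-76023497, minus strand) lies farther along the same chromosome. The others are elsewhere, with CXCL12 at chr10:44370165-44386493, CXCL14 at chr5:135570679-135579279 and CXCL16 at chr17:4733533-4739928, all on the minus strand.

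Promoter sequence is shown because the 6 ELR chemokines, whose changes are given further on, share a short element at a similar distance from their starts. RefSeq promoters (GRCh38.p14, 250 bases before to 50 after the start) were found for 9 of the 10 genes, all but CXCL16. The NF-kappaB-type element GGAATTTCC, searched on both strands (reverse GGAAATTCC), was in 7 of these 9 promoters (CXCL1, CXCL2, CXCL3, CXCL5, CXCL6, CXCL8 and CXCL10), against 162 of 34943 promoters in all (0.464%). It was not found in the windows of CXCL12 and CXCL14. Among 6 other CXC ligands with a promoter it was in 1 (CXCL11). It was not found in PF4V1 or PPBP, which lie in the same cluster and also rose after MmC, from few counts or none. Both had enough reads to be tested only through the MmC+ libraries. The part of the element in any change was not tested. Several of the 7 have nearly the same flanks, given below, so they are not separate cases to set against that share. A match of letters is a description and not a site shown to be bound. In the lines that follow, each sequence runs 5′ to 3′ on the gene's own strand with the element in capitals, and every one lies upstream of the annotated gene. That of CXCL3 is left out because in GENCODE it falls inside the gene's own extent. The stretches shown are chr4:73869285-73869353 (plus) for CXCL1, chr4:74099234-74099302 (minus) for CXCL2, chr4:73998729-73998797 (minus) for CXCL5, chr4:73836559-73836627 (plus) for CXCL6, chr4:73740448-73740516 (plus) for CXCL8 and chr4:76023635-76023703 (minus) for CXCL10.
CXCL1: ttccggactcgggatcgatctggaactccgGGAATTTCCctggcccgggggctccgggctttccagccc
CXCL2: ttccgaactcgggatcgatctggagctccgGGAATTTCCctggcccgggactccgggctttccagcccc
CXCL5: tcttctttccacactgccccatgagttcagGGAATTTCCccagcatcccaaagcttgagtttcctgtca
CXCL6: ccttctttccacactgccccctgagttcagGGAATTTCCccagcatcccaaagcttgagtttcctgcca
CXCL8: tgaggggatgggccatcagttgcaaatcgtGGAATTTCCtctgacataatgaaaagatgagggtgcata
CXCL10: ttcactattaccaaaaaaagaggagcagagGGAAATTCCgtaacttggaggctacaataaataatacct

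The element began 78 bases before the RefSeq start in CXCL1 and CXCL3 and 77 in CXCL2. It began 90 bases before the start in CXCL5, 89 in CXCL6 and 91 in CXCL8. In CXCL10 it stood on the opposite strand, 176 bases before the start. The flanking bases were nearly the same in CXCL5 and CXCL6, at 95% of 60 bases, and in CXCL1 and CXCL3, at 88.3%. CXCL1 and CXCL2 shared 78.3%, whereas CXCL8 shared at most 28.3% with any other. An AP-1 element (TGANTCA, in 7.72% of all promoters) was present in CXCL8 and CXCL14. An interferon-stimulated response element (in 3.57%) was present in CXCL10, and a TATA box (TATAAA, in 11.6%) in CXCL8.

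Libraries held 71275337 to 144204979 counts (median 86044010), and scaling factors by TMM (trimmed mean of M-values) were 0.916 to 1.05. The labels name 1 sequencing run for all of them. The paper nevertheless lists batch effects from technical issues among its limitations, without naming the libraries concerned, and the main fit has no batch term. Replicate 1 of both MmC+ groups stood apart from the other replicates of its group in several chemokines, as given below, and had the lowest scaling factors (0.916 and 0.920). All 8 MSC markers were counted, with a summed level of 6311 to 8215 CPM (counts per 1e6 counts, TMM-scaled). The 8 haematopoietic markers summed to 1.74 to 2.86 CPM without MmC and to 3.01 to 5.74 CPM after it, with CD14 the most abundant and CD3E and TYROBP at 0 in both MmC- groups. The 6 endothelial markers, mostly TEK, summed to 47.5 to 82.4 CPM without MmC and to 54.4 to 111 CPM after it, and the 7 adipocyte and epithelial markers to 1.92 to 3.12 CPM over all libraries. The part of such cells in the results that follow was not tested. In bulk RNA, fewer cells of a type and less RNA per cell cannot be told apart.

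**Figure D1:**
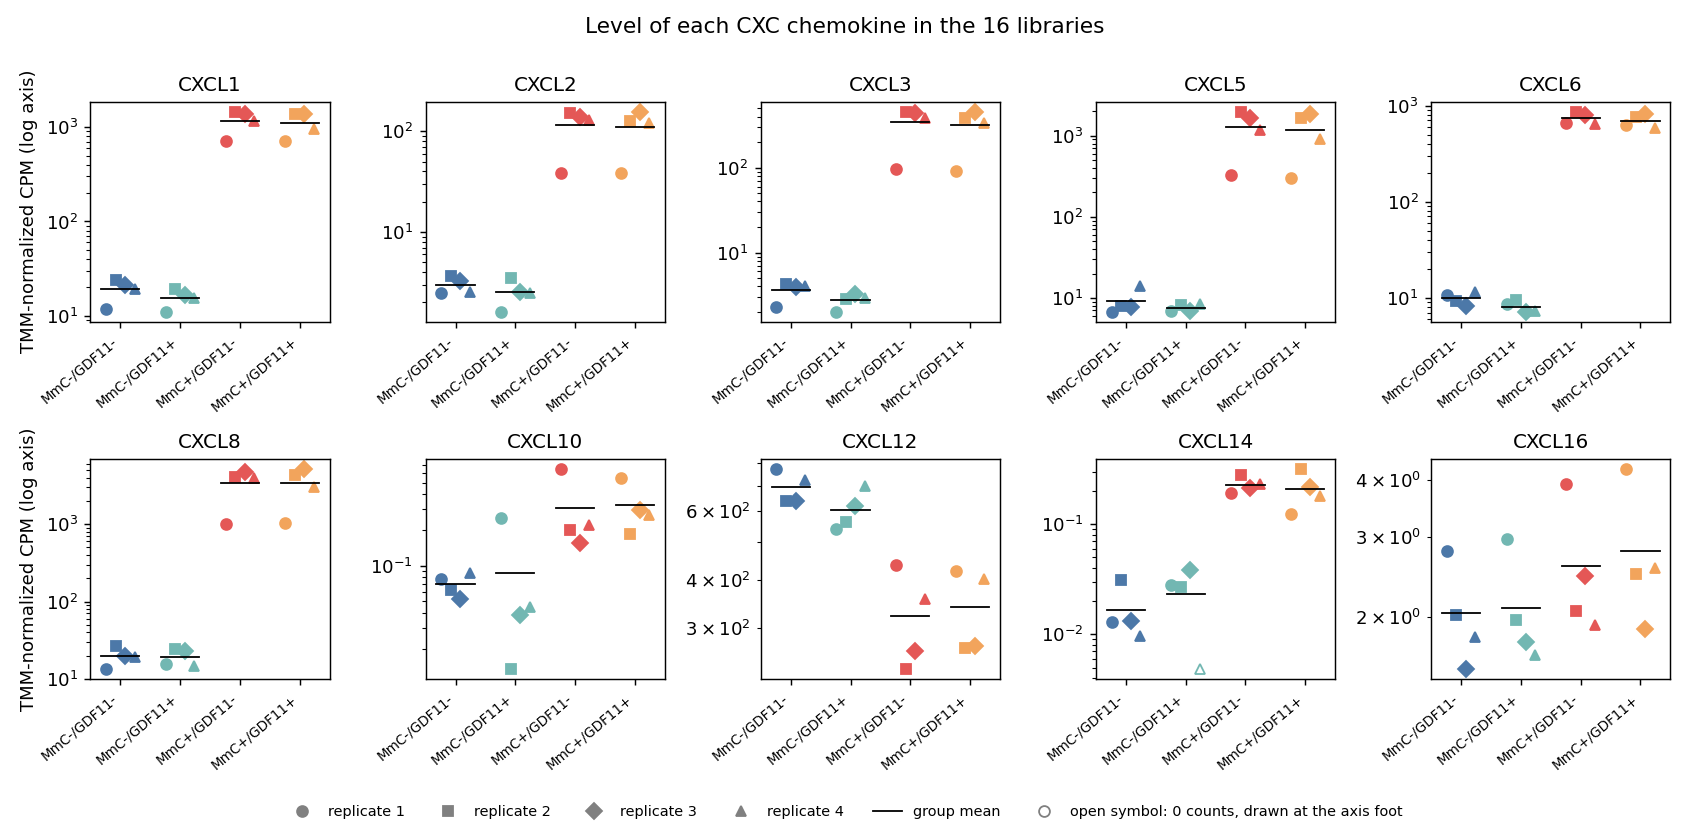
TMM-scaled CPM of each chemokine (y, log axis, a scale of its own for each gene) in the 4 groups (x), with 1 symbol per library by replicate number and a line at the group mean. The 6 ELR genes (upper row and CXCL8) sit far higher in both MmC+ groups than in both MmC- groups, with replicate 1 the lowest MmC+ library for CXCL8 at 1011 and 1023 CPM, whereas CXCL12 is lower after MmC.

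The first question was what MmC did to the chemokines without GDF11. Of the 10 genes, 8 rose, 1 fell (CXCL12) and 1 did not pass the test (CXCL16), by edgeR's quasi-likelihood test with an adjusted p under 0.05. Over all genes tested 45.3% passed, 22.9% higher and 22.4% lower. CXCL10 and CXCL14 had few counts without MmC and passed the count filter only through the MmC+ libraries. Their place among the genes that rose, here and with GDF11, thus partly follows from being tested. For 8 chemokines all 4 MmC+ libraries lay above all 4 MmC- libraries and for 1 they lay below, against 37.3% of all genes without overlap in either direction (19.1% higher and 18.2% lower). The median log2 fold change of the 10 was 5.61, and that of the 6 ELR genes 6.39, against -0.01 for all genes tested.

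CXCL8, a strong neutrophil attractant, had the largest change of the 10. Its level was 13.3, 26.6, 19.9 and 19.3 CPM in MmC-/GDF11- replicates 1 to 4, and 1011, 4028, 4681 and 4003 CPM in MmC+/GDF11-. Every MmC+ library was above every MmC- library, although replicate 1 stood far below the others of its group. The log2 fold change was 7.44 (SE 0.601, adjusted p = 3.59e-07), a 173-fold rise, and its place was 18 among the 19103 genes ordered by fold change.

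CXCL5, which acts on CXCR2, followed it. CXCL5 stood at 6.76, 7.94, 7.71 and 14.0 CPM without MmC and at 328, 1988, 1648 and 1182 CPM after it. The groups did not overlap, and the spread after MmC was wide because replicate 1 was far below the others. The rise was 7.14 on the log2 scale (SE 0.653, adjusted p = 1.03e-06), or 141-fold. CXCL5 shares 17.3% of its exonic bases with a long non-coding gene on the opposite strand, ENSG00000287037, which itself had 20 to 90 counts in the MmC+/GDF11- libraries against 32374 to 170593 for CXCL5.

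CXCL6 acts on both CXCR1 and CXCR2, and its replicates were the closest of the 10 genes after MmC, with a coefficient of variation of 14.8%. CXCL6 had 10.6, 9.16, 8.22 and 11.6 CPM without MmC and 656, 867, 803 and 645 CPM after it. Replicate 1 lay within the range of the other replicates here. With a log2 fold change of 6.23 (SE 0.182) it had the smallest adjusted p of the 10 genes, 2.83e-12, on a 75.0-fold rise.

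CXCL1, CXCL2 and CXCL3, the closely related growth-regulated (GRO) chemokines that act mainly on CXCR2, rose as well. CXCL1 was at 11.8, 24.0, 21.2 and 19.2 CPM without MmC and at 708, 1462, 1375 and 1151 CPM after it, and the groups were far apart. Its log2 fold change was 5.94 (SE 0.330, adjusted p = 6.74e-09). CXCL3 rose from 2.29, 4.29, 3.98 and 4.02 CPM to 95.4, 449, 442 and 383 CPM, by 6.55 on the log2 scale (SE 0.573, adjusted p = 6.72e-07). CXCL2 rose from 2.47, 3.61, 3.25 and 2.55 CPM to 38.4, 154, 139 and 129 CPM, by 5.27 (SE 0.487, adjusted p = 1.10e-06). In both, replicate 1 was the lowest MmC+ library but lay above every library without MmC. These genes resemble each other, since 23.9% of the 31-base words in CXCL2 exons, 13.0% in CXCL1 and 9.59% in CXCL3 occur elsewhere in the genome, so how reads were split between them is uncertain.

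CXCL12 (SDF-1), the CXCR4 ligand, was the abundant chemokine of the untreated cells and the only one of the 10 to fall. CXCL12 stood at 771, 640, 637 and 723 CPM without MmC and at 437, 235, 262 and 356 CPM after it. No MmC+ library reached the MmC- range, and replicate 1 was the highest of the MmC+ libraries. It fell by 1.10 on the log2 scale (SE 0.192, adjusted p = 0.000251), to 0.465 of its level.

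CXCL10, the interferon-induced ligand of CXCR3, was close to the detection limit. Its libraries held 6, 6, 4 and 9 counts without MmC (0.0780, 0.0621, 0.0524 and 0.0868 CPM) and 64, 17, 14 and 19 after it (0.648, 0.198, 0.156 and 0.219 CPM). The groups did not overlap, and replicate 1 was the highest. The log2 fold change was 2.11 (SE 0.643, adjusted p = 0.0138). Without MmC+/GDF11- replicate 1 it was 1.43 (adjusted p = 0.0676) and no longer passed, whereas without replicate 1 of every group it was 1.47 (adjusted p = 0.00487). ART3, whose intron spans CXCL10 on the opposite strand with no shared exonic base, had 0 to 4 counts without MmC and 30 to 77 after it.

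CXCL14, a chemokine with no settled receptor, was sparser still, with 1, 3, 1 and 1 counts without MmC and 19, 24, 19 and 20 after it. The groups were apart, and summed over each group 6 counts became 82, a depth-adjusted ratio of 13.4 (95% interval 5.89 to 37.5, counting error only). The fitted log2 fold change was 3.65 (SE 0.501, adjusted p = 3.20e-05). CXCL14 shares 5.47% of its exonic bases with SLC25A48 on the opposite strand, which had at most 7 counts in any library.

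CXCL16, the membrane-anchored ligand of CXCR6, was at 2.79, 2.02, 1.53 and 1.80 CPM without MmC and at 3.92, 2.06, 2.46 and 1.92 CPM after it. The groups overlapped, and the log2 fold change of 0.35 (SE 0.284, 95% interval -0.25 to 0.95, adjusted p = 0.335) did not pass. With the replicate number as a block it was 0.33 (adjusted p = 0.0422) and passed. Replicate 1 was the highest library of each group for this gene. CXCL16 shares 2.72% of its exonic bases with MED11 and 3.44% with ZMYND15, both on the opposite strand, and 9.45% of its 31-base words occur elsewhere in the genome.

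**Figure D2:**
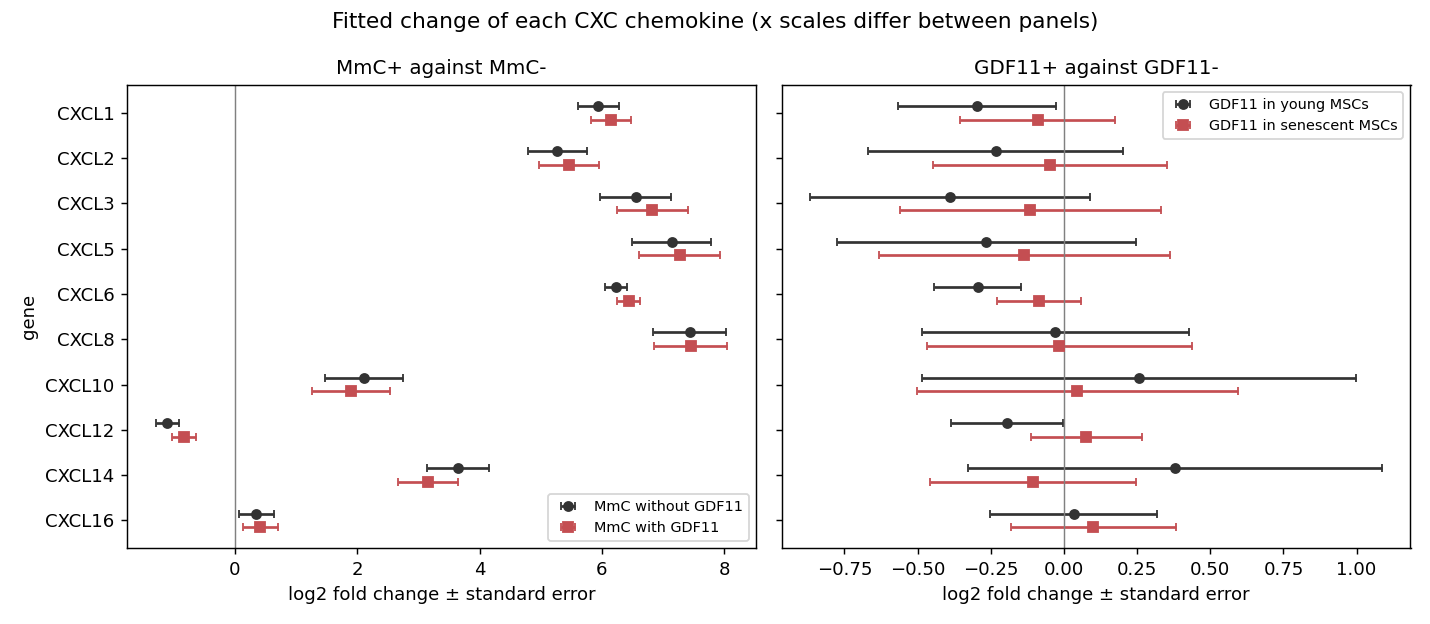
Log2 fold change (x, point) with its standard error (bar) of each chemokine (y) for MmC+ against MmC- (left, without and with GDF11) and for GDF11+ against GDF11- (right, without and after MmC), on different x scales. The ELR genes lie between 5.27 and 7.45 on the left, CXCL12 lies below 0, and on the right no gene is farther than 0.39 from 0.

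The same comparison was made among cells given GDF11. Again 8 chemokines rose, CXCL12 fell and CXCL16 did not pass, against 46.7% of all genes that passed (23.4% higher and 23.3% lower). In 7 the MmC+ libraries lay above and in 1 below all MmC- libraries, against 41.5% of all genes without overlap (20.2% higher and 21.2% lower). The exception among the genes that rose was CXCL10. CXCL8 was at 15.8, 24.4, 22.9 and 14.5 CPM in MmC-/GDF11+ and at 1023, 4377, 5141 and 3028 CPM in MmC+/GDF11+. Its log2 fold change was 7.45 (SE 0.601, adjusted p = 3.74e-07). CXCL5 had 6.93, 8.07, 6.94 and 8.36 CPM with GDF11 alone and 301, 1639.6, 1832 and 911 CPM with MmC and GDF11. Its rise was 7.27 on the log2 scale (SE 0.657, adjusted p = 1.01e-06), with replicate 1 again the lowest MmC+ library. CXCL6 had 8.62, 9.35, 7.13 and 7.18 CPM and then 635, 758, 826 and 581 CPM, a rise of 6.44 (SE 0.184, adjusted p = 1.98e-12).

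Among the GRO genes, CXCL1 was at 11.0, 19.2, 16.6 and 15.4 CPM with GDF11 alone and at 704, 1384, 1369 and 953 CPM with MmC and GDF11 (log2 fold change 6.15, adjusted p = 4.71e-09). CXCL3 was at 2.01, 2.87, 3.30 and 2.96 CPM and then at 91.0, 385, 457 and 331 CPM (6.83, adjusted p = 5.98e-07). CXCL2 was at 1.61, 3.47, 2.52 and 2.50 CPM and then at 38.7, 127, 157 and 122 CPM (5.46, adjusted p = 1.00e-06). None of the 6 ELR genes had overlapping groups, and replicate 1 was the lowest MmC+ library of these 3.

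CXCL12 was at 540, 565, 619 and 697 CPM with GDF11 alone and at 421, 267, 270 and 402 CPM with MmC and GDF11. It fell by 0.83 on the log2 scale (SE 0.191, adjusted p = 0.00216), again without overlap. CXCL10 had 18, 1, 3 and 4 counts (0.250, 0.0134, 0.0383 and 0.0447 CPM) and then 40, 18, 43 and 25 counts (0.547, 0.183, 0.293 and 0.267 CPM). Replicate 1 with GDF11 alone reached into the MmC+ range, and the log2 fold change was 1.897 (SE 0.638, adjusted p = 0.0228). It no longer passed when 1 library was left out, either MmC+/GDF11+ replicate 1 or any of MmC-/GDF11+ replicates 2, 3 and 4, with values between 1.55 and 1.68, whereas without MmC-/GDF11+ replicate 1 it was 3.24 (adjusted p = 0.000885). CXCL14 went from 2, 2, 3 and 0 counts to 9, 31, 32 and 17 (log2 fold change 3.16, adjusted p = 9.33e-05). CXCL16 had 2.96, 1.97, 1.76 and 1.65 CPM and then 4.23, 2.49, 1.88 and 2.56 CPM, and its log2 fold change was 0.42 (95% interval -0.19 to 1.02, adjusted p = 0.246).

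GDF11 was then compared with no GDF11, first in cells without MmC. By edgeR's quasi-likelihood test 0 of the 10 chemokines passed, as did 0 of all 19103 genes (0%), with 226 genes (1.18%) at an unadjusted p under 0.05 and none of them a chemokine of the 10. DESeq2 called 1 gene and limma-voom 0, again no chemokine of the 10. The log2 fold changes ran from -0.39 (CXCL3) to 0.38 (CXCL14), and the groups overlapped for every one of the 10, against 0.89% of all genes without overlap. All 6 ELR genes had values below 0, and in this fit CXCL6 had the smallest unadjusted p of them at -0.30 (95% interval -0.61 to 0.02, unadjusted p = 0.0638). The interval of CXCL1 was -0.87 to 0.28, and CXCL8 was at -0.03 (SE 0.457).

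After MmC the same comparison gave 0 chemokines and 0 genes (0%) by edgeR, with 96 genes (0.503%) at an unadjusted p under 0.05, none of them one of the 10. DESeq2 and limma-voom called 0 genes. Log2 fold changes of the chemokines lay between -0.14 (CXCL5) and 0.10 (CXCL16). The 95% interval was -0.98 to 0.95 for CXCL8, -0.39 to 0.22 for CXCL6 and -0.33 to 0.48 for CXCL12. These come from the fit without a block, although the replicate numbers of the MmC+ groups met the rule for pairing given below. With the block, CXCL8 was -0.04 (SE 0.300), CXCL6 -0.08 (SE 0.135), CXCL12 0.08 (SE 0.129) and CXCL1 -0.09 (SE 0.0807). Again 0 chemokines passed. The groups overlapped for all 10, against 0.503% of all genes without overlap.

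Whether the response to MmC differed with GDF11 was tested as an interaction. The interaction values of the 10 chemokines ran from -0.49 (CXCL14) to 0.27 (CXCL3) on the log2 scale. None passed by edgeR, 0 genes (0%) passed among all tested (172 or 0.9% at an unadjusted p under 0.05), and DESeq2 and limma-voom called 0. The smallest unadjusted p among the 10 was 0.327, for CXCL6 (value 0.21, 95% interval -0.23 to 0.65). With libraries left out the interaction values of CXCL10 ran from -0.62 to 1.41, the highest being without replicate 1 of every group (unadjusted p = 0.0332), against -0.21 with all libraries. CXCL14 then ran from -1.03 to -0.086, CXCL3 from -0.039 to 0.58 and CXCL8 from -0.29 to 0.32, and the signs of CXCL2, CXCL5 and CXCL16 also turned in some of these fits.

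**Figure D3:**
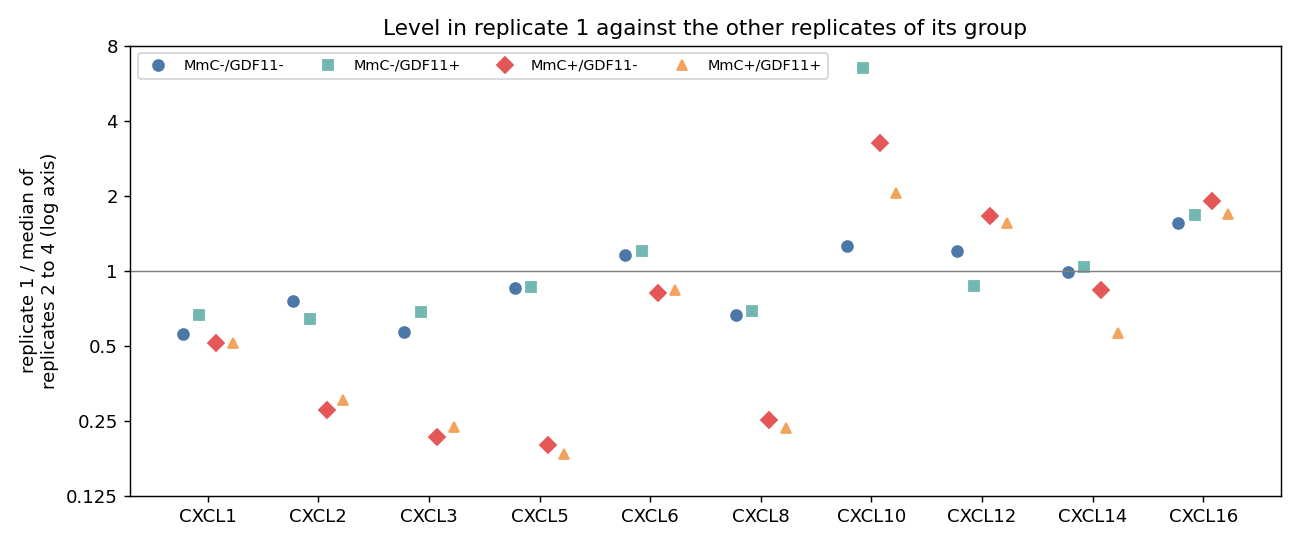
Level in replicate 1 divided by the median of replicates 2 to 4 of the same group (y, log axis, where 1 means no difference) for each chemokine (x), with 1 symbol per group. After MmC, CXCL2, CXCL3, CXCL5 and CXCL8 lie between 0.183 and 0.303 in replicate 1, and CXCL10, CXCL12 and CXCL16 lie between 1.56 and 3.27.

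The chemokines differed among themselves in how far replicate 1 stood from the other replicates after MmC. For CXCL5 it was 0.199 of the median of replicates 2 to 4 in MmC+/GDF11- and 0.183 in MmC+/GDF11+, for CXCL3 0.216 and 0.236, for CXCL8 0.251 and 0.234, and for CXCL2 0.277 and 0.303. CXCL1 was at 0.515 in both, and CXCL6 at 0.816 and 0.838, inside the range of the others. Those at the other end were CXCL12 at 1.66 and 1.56, CXCL16 at 1.901 and 1.70 and CXCL10 at 3.27 and 2.05. Cytokines outside the family moved in the same libraries. IL6 was at 0.173 and 0.177 of the other replicates, IL1B at 0.256 and 0.281, IL1A at 0.313 and 0.330, and IL1RN, the receptor antagonist, at 0.0508 and 0.0459. NF-kappaB genes differed among themselves. NFKB2 was at 0.621 and 0.659 and NFKBIZ at 0.768 and 0.736, with replicate 1 below every other replicate. TNFAIP3, an inhibitor of NF-kappaB signalling, was at 1.03 and 0.977. Without MmC, replicate 1 was the lowest library of both groups for CXCL1 (0.558 and 0.667 of the others), CXCL2 (0.760 and 0.640), CXCL3 (0.569 and 0.681) and CXCL5 (0.851 and 0.859), and for CXCL8 in MmC-/GDF11- alone (0.664). The cytokines differed there, since replicate 1 was the highest MmC- library of its group for IL6 (2.05 and 2.28), IL1A (1.25 and 1.92) and IL1B (1.12 and 1.52). IL1RN was at 0.837 and 0.733.

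Without replicate 1 of every group the response of the 6 ELR genes and of CXCL12 to MmC was at least as large. The same counts of chemokines passed, 8 higher and 1 lower in both comparisons. Over all 19338 genes then tested, 10004 passed without GDF11 (5059 higher and 4945 lower) and 10164 with it (5098 and 5066). With all libraries 8655 and 8926 of 19103 genes passed. CXCL8 then rose by 7.59 (SE 0.279) and CXCL5 by 7.34 (SE 0.367) without GDF11, and CXCL12 fell by 1.23 (SE 0.173) without GDF11 and by 1.00 (SE 0.172) with it. The standard error of CXCL3 went from 0.573 to 0.148 without GDF11. CXCL10 moved the other way without GDF11, to 1.47 from 2.11, and with GDF11 it went to 2.88 from 1.897. CXCL16 was then at 0.26 (adjusted p = 0.211) and 0.36 (adjusted p = 0.0855).

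Levels were set against each other per length of exon, as RPKM (CPM divided by the exon length in kilobases), to describe which chemokine RNA prevailed. In untreated cells CXCL12 led at 113 ± 10.7 RPKM (SD, n = 4) and made up 76.3% ± 4.78 of the summed RPKM of the 10 genes. CXCL1 came next at 14.0 ± 3.82, then CXCL8 at 7.64 ± 2.10, CXCL6 at 4.85 ± 0.733 and CXCL5 at 3.73 ± 1.35. Neighbours in that order overlapped from CXCL1 to CXCL5, whereas CXCL12 stood clear of CXCL1. Below them were CXCL2 at 2.13 ± 0.395 and CXCL3 at 1.64 ± 0.412, which overlapped each other, then CXCL16 at 0.729 ± 0.194, CXCL10 at 0.0594 ± 0.0131 and CXCL14 at 0.00845 ± 0.00491.

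After MmC alone the order changed. CXCL8 led at 1326 ± 635 RPKM, followed by CXCL1 at 862 ± 248, CXCL5 at 528 ± 295 and CXCL6 at 364 ± 53.8, each overlapping its neighbour. In replicate 1 of this group the order turned, with CXCL1 at 520 RPKM above CXCL8 at 391 and CXCL6 at 321 above CXCL5 at 135. CXCL3 followed at 154 ± 75.4, CXCL2 at 82.2 ± 37.2 and CXCL12 at 52.5 ± 15.0, and of these only CXCL3 and CXCL6 did not overlap. CXCL16 (0.927 ± 0.328), CXCL10 (0.260 ± 0.196) and CXCL14 (0.116 ± 0.0189) stayed at the foot of the order. CXCL12 now made up 2.07% ± 1.79 of the summed RPKM and CXCL8 37.4% ± 8.27, against 5.21% ± 1.54 for CXCL8 in untreated cells.

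Among 19053 genes with a length, CXCL8 went from place 4724 by RPKM to place 21, CXCL1 from 2919 to 34, CXCL5 from 7156 to 52 and CXCL6 from 6248 to 74. CXCL12 went from place 312 to 730. The 6 ELR genes together took 0.00650% ± 0.00127 of all counts in untreated libraries and 0.713% ± 0.308 after MmC. By library after MmC alone that share was 0.260%, 0.890%, 0.922% and 0.778%, with replicate 1 the lowest. With GDF11 the corresponding shares were 0.00563% ± 0.000863 and 0.682% ± 0.326. When the length of the canonical transcript replaced that of all exons, chosen after the data were seen, the mean of CXCL12 in untreated cells was 359 RPKM and it again came first, and CXCL8 again came first after MmC at 2089. The order below them depended on the length used, since CXCL12 at 167 RPKM then came above CXCL2 at 103 after MmC, and CXCL3 at 3.39 above CXCL2 at 2.67 in untreated cells.

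**Figure D4:**
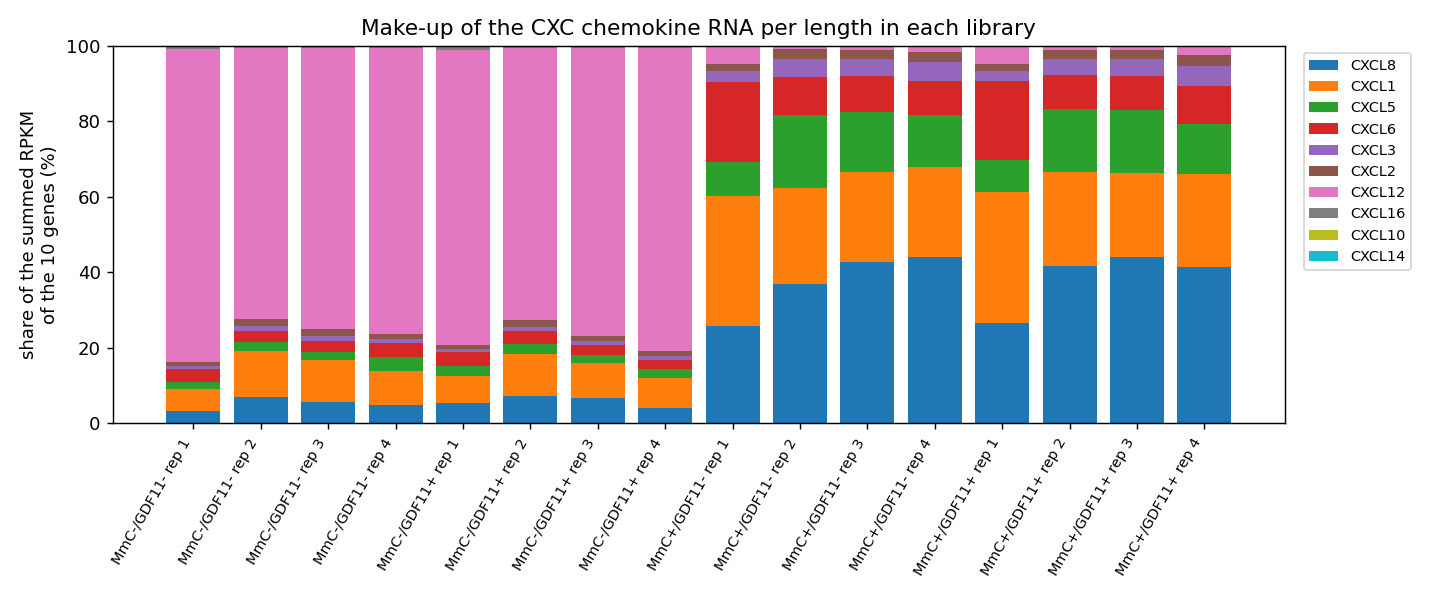
Share of each chemokine in the summed RPKM of the 10 genes (y, percent, stacked to 100) in each of the 16 libraries (x). CXCL12 makes up 71.8% to 83.0% in every library without MmC and 0.905% to 4.71% in every library after it, where CXCL8, CXCL1, CXCL5 and CXCL6 fill most of the bar.

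**Figure D5:**
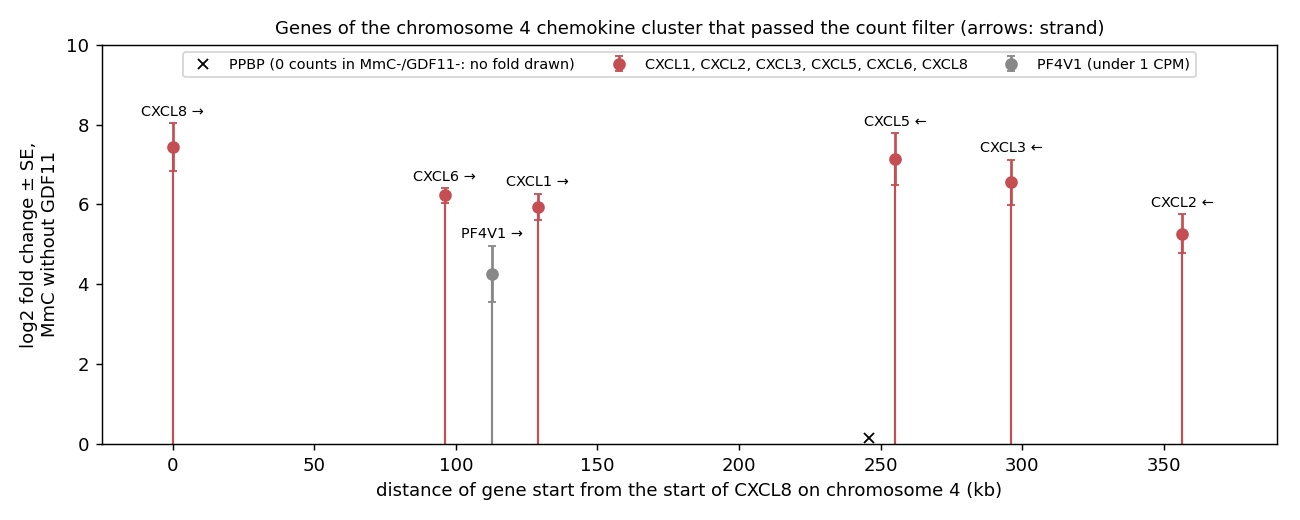
Log2 fold change for MmC without GDF11 (y, point) with its standard error (bar) against the distance of each gene from the start of CXCL8 (x, kb), for genes of the chromosome 4 cluster that passed the count filter, with arrows for the strand. The 6 ELR genes lie between 5.27 and 7.44 wherever they stand in the cluster, PF4V1 lies at 4.27, and PPBP is marked at the foot because it had 0 counts without MmC.

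The remaining CXC ligands were sparse. Of the 7 listed (PF4, PF4V1, PPBP, CXCL9, CXCL11, CXCL13 and CXCL17), 3 had enough counts to be tested and all 3 rose in both MmC comparisons, where 22.9% and 23.4% of all genes rose. PPBP, PF4V1 and CXCL11 had few counts or none without MmC and passed the count filter only through the MmC+ libraries. Their place among the genes that rose therefore follows at least partly from being tested, and the count cannot be set against that share. PPBP, the platelet chemokine precursor that sits between CXCL1 and CXCL5 in the cluster, had 0 counts in all 4 MmC-/GDF11- libraries and 86 in the MmC+/GDF11- libraries, which is at least 28.1-fold higher against a floor of 3 counts over the group. PF4V1, also in the cluster, went from 3 counts to 68, a depth-adjusted ratio of 22.2 (95% interval 7.28 to 110). CXCL11, a CXCR3 ligand, went from 19 to 65 (ratio 3.35, 95% interval 1.98 to 5.92), with groups that overlapped. PF4 (0 counts without MmC and 5 after it), CXCL9 (4 and 11), CXCL13 (2 and 4) and CXCL17 (0 and 4) had too few counts to test. Intervals and floors here cover counting error only.

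Among the 8 listed receptors only ACKR3, the scavenging receptor that takes up CXCL12, had enough counts. Its mean was 4.88 ± 3.00 CPM without MmC and 25.9 ± 11.3 CPM after it (n = 4 each), with ranges of 2.81 to 9.33 and 10.6 to 37.1 that did not overlap. ACKR3 rose by 2.41 on the log2 scale (SE 0.463, adjusted p = 0.000679), and by 2.46 (adjusted p = 0.000596) with GDF11. CXCR4, the signalling receptor of CXCL12, had 0 counts in MmC-/GDF11- and 36 in MmC+/GDF11-, and CXCR2, the main ELR receptor, had 1 and 23. Over the 16 libraries CXCR1 reached at most 7 counts in any, CXCR3 at most 2, CXCR5 at most 12, CXCR6 at most 1 and ACKR1 at most 7.

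The NF-kappaB list held 14 subunits and regulators, of which 9 rose, 1 fell (BCL3) and 4 did not pass (NFKB1, REL, IKBKG and CHUK) for MmC without GDF11, with a median log2 fold change of 0.68 against -0.01 for all genes, of which 22.9% rose and 22.4% fell. TNFAIP3 went from 25.1 ± 3.03 to 140 ± 3.31 CPM (log2 fold change 2.48, adjusted p = 5.79e-11). NFKBIZ, a regulator of NF-kappaB that acts in the nucleus, went from 15.9 ± 2.24 to 78.9 ± 10.9 CPM (2.31, adjusted p = 1.02e-08). With GDF11 the counts were 9 higher and 0 lower, where 23.4% of all genes rose and 23.3% fell. Of 13 tested cytokines and receptors that act upstream, 5 rose, 2 fell and 6 did not pass, so the share that passed was near the 45.3% of all genes. IL1B, a strong inducer of ELR chemokines, went from 4.52 ± 0.251 to 227 ± 128 CPM (5.65, adjusted p = 1.03e-06) and IL1RN from 0.605 ± 0.302 to 33.1 ± 22.1 CPM (5.74, adjusted p = 0.000256). The genes that fell were TNFRSF1A, a receptor of tumour necrosis factor, at 294 ± 23.6 and 164 ± 39.4 CPM (log2 fold change -0.84, adjusted p = 0.000465), and IRAK1, a kinase of the interleukin-1 pathway (-0.49, adjusted p = 0.00167). TNF itself had too few counts to test.

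Of 14 tested interferon response genes, 10 rose, 0 fell and 4 did not pass without GDF11, and 7 rose with it, with median log2 fold changes of 1.00 and 0.77, where 22.9% and 23.4% of all genes rose. RSAD2, an antiviral enzyme, went from 11.9 ± 5.18 to 33.5 ± 10.7 CPM (log2 fold change 1.49, adjusted p = 0.00644). Of 12 C/EBP and AP-1 factors, 5 rose and 0 fell without GDF11 and 6 rose with it, where 22.9% and 23.4% of all genes rose. The share that passed was near the 45.3% and 46.7% of all genes that passed in either direction. Those with the highest values were CEBPA, at 0.190 ± 0.188 and 1.60 ± 0.760 CPM (3.11, adjusted p = 0.00114), and FOSB, at 1.32 ± 0.239 and 6.72 ± 3.13 CPM (2.34, adjusted p = 0.000558).

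Chemokine messages of the ELR class are short-lived, and 10 factors that destroy or stabilise such messages were listed. Of these 2 rose, 6 fell and 2 did not pass, with a median log2 fold change of -0.38, where 22.9% of all genes rose and 22.4% fell. ZC3H12A (Regnase-1), a nuclease that cuts inflammatory messages, went from 11.7 ± 1.11 to 93.1 ± 23.2 CPM (3.00, adjusted p = 2.47e-08), and ZFP36L1, which recruits decay enzymes, rose by 0.66 on the log2 scale (adjusted p = 0.00229). ZFP36 (tristetraprolin), which also recruits them, went from 52.3 ± 10.4 to 30.3 ± 7.44 CPM (-0.79, adjusted p = 0.0127). HNRNPD (AUF1), which binds AU-rich messages, went from 276 ± 40.4 to 115 ± 7.30 CPM (-1.26, adjusted p = 1.20e-06). With GDF11 the counts were 2 higher and 5 lower, where 23.4% of all genes rose and 23.3% fell.

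The genes most like CXCL8 and CXCL12 over the 16 libraries were sought by the root mean square difference of their centred log2 CPM among 11881 genes. Nearest to CXCL8 were CXCL5 (0.380), CXCL3 (0.449), IL6 (0.543), CXCL1 (0.736) and CXCL6 (0.794), so 4 of its 5 nearest genes were of the same family. IL6, a cytokine of acute inflammation, had 2.94 to 6.17 CPM in MmC-/GDF11- and 146, 905, 840 and 741 CPM in MmC+/GDF11-, the first being replicate 1. Among the nearest to CXCL12 were MAPRE2 (0.141), LRIG3 (0.149), NHSL1 (0.156) and OLFML1 (0.157). These points share their libraries and the treatment contrast, and the values are a description only.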

How the data were processed

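Poly(A) RNA of 16 ASC52telo libraries was sequenced in 4 groups of 4, made with a directional kit. Per the submitters' processing notes the authors aligned reads with HISAT2 2.2.1 and counted them per gene with featureCounts 2.0.1 on GRCh38, and they deposited raw counts. The strand setting and the treatment of reads with several alignments are not given in the sources used here. Symbols and positions came from GENCODE v44 (186 identifiers did not match). Counts were tested with edgeR 4.0.16 (R 4.3.3) by filterByExpr (minimum count 10, minimum total 15), TMM scaling and the quasi-likelihood test with all 16 libraries in 1 fit, with Benjamini-Hochberg adjustment over all 19103 genes at 0.05. Each adjusted p in the text comes from this test unless another is named. CPM are TMM-scaled and RPKM use the summed exon length. Standard errors come from the fold change and its F value, and 95% intervals from the fit's degrees of freedom. Ratios of sparse counts have exact 95% intervals.

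Depth ran from 71275337 to 144204979 counts, so genes with few counts carry most of the counting error. For all pairs of replicates the squared difference, divided by the variance from counting alone, averaged at least 56.9, so none was a repeat deposit. The replicate numbers were checked by the correlation of deviations from group means. Same-numbered libraries of MmC-/GDF11- and MmC+/GDF11- correlated at 0.113 or more, and those of the MmC+ groups at 0.448 or more, which met the rule for pairing on the data alone, since the labels do not say what a number marks. The fit has no block, and values with the replicate number as a block are given where they change a call and for some GDF11 comparisons. Alternatives were RLE scaling, other filters, a fit of the compared libraries only, the replicate block, DESeq2 1.42.0, limma 3.58.1 (voom), glmTreat against a log2 change of 1, and leaving out libraries. Scripts were tested on simulated data. The chemokines, the gene lists and the tests were chosen with earlier results of these data known. Genes named were the 10 chemokines, the listed ligands and receptors, the 2 highest and 2 lowest called in both MmC comparisons from each other list, and the 5 genes nearest to CXCL8 and CXCL12. Other names (IL1A, NFKB1, BCL3 and the like) were chosen after their values were seen. Some genes that meet this rule are not reported here.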

Additional observations from a re-analysis of the deposited data

Results flagged for a closer look

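In groups of 4 libraries, 1 library was taken as far from the others when its gap to the nearest exceeded Dixon's 95% critical share of the group's range. Of 40 groups (10 chemokines in 4 groups), 5 held such a library, and chance alone gives about 1 in 20. CXCL3 was lowest in MmC-/GDF11- replicate 1, at 2.29 CPM against 3.98 to 4.29 in the others. CXCL5 was highest in MmC-/GDF11- replicate 4, at 14.0 CPM against 6.76 to 7.94. CXCL10 was highest in MmC-/GDF11+ replicate 1, at 0.250 CPM against 0.0134 to 0.0447, and in MmC+/GDF11- replicate 1, at 0.648 CPM against 0.156 to 0.219. CXCL14 was highest in MmC-/GDF11- replicate 2, at 0.0311 CPM against 0.00964 to 0.0131, which is 3 counts against 1 in each of the others.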

How the results depend on the processing

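For MmC, between 7 and 10 of the 10 chemokines passed under every alternative, and 8 or 9 when libraries were left out. Among the values of single chemokines for MmC, 380 kept direction and side of the threshold, 13 no longer passed (CXCL10 and CXCL12, of which both comparisons of each were lost with glmTreat) and 2 now passed (CXCL16 with the replicate block). CXCL10 was also lost without replicate 3 of every group (2.23) without GDF11, and without replicate 2, 3 or 4 of every group (1.71 to 1.76) with it. With at least 10 counts demanded in every library CXCL10 and CXCL14 were not tested. No direction changed for MmC. Calls over all genes fell from 8655 to 1294 without GDF11 and from 8926 to 1235 with it under glmTreat, and to 5490 and 5505 without replicate 3 of every group. For GDF11 0 chemokines passed under every alternative. DESeq2, and leaving out MmC-/GDF11+ replicate 2 or replicate 2 of every group, each called 1 gene without MmC, where the main count was 0.

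The replicate block gave 11066 calls without GDF11 and changed no call of the 10 there but CXCL16. The numbers of MmC-/GDF11+ and MmC+/GDF11+ (lowest correlation 0.0293) and of the MmC- groups (0.0982) did not meet the rule for pairing. With the block MmC with GDF11 gave 11267 calls and CXCL16 was 0.40 (adjusted p = 0.0164). For GDF11 without MmC the block gave 0.0049 for CXCL8 and -0.28 for CXCL1 (SE 0.0829, adjusted p = 1), and CXCL10 was -0.38 with limma-voom. The cause of these changes was not tested.

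With libraries left out, the values for GDF11 without MmC stayed below 0 for CXCL1 (-0.47 to -0.17), CXCL2 (-0.42 to -0.074), CXCL3 (-0.55 to -0.26), CXCL6 (-0.41 to -0.16) and CXCL12 (-0.27 to -0.091). They ran from -0.38 to 0.023 for CXCL5, from -0.18 to 0.15 for CXCL8, from -1.07 to 0.62 for CXCL10, from -0.069 to 0.86 for CXCL14 and from -0.18 to 0.23 for CXCL16. After MmC they ran from -0.27 to 0.079 for CXCL1, -0.33 to 0.24 for CXCL2, -0.42 to 0.20 for CXCL3, -0.45 to 0.19 for CXCL5, -0.32 to 0.29 for CXCL8, -0.30 to 0.73 for CXCL10, -0.047 to 0.26 for CXCL12, -0.36 to 0.066 for CXCL14 and -0.16 to 0.37 for CXCL16. After MmC, all of these extremes but the lowest of CXCL12 and CXCL14 came with replicate 1 of an MmC+ group left out. Depth limits CXCL10 and CXCL14, at most 64 counts in any library.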

Other observations

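Proteases that cut or shed chemokines were also listed, and 11 of 14 had enough counts. For MmC 8 of these rose, 0 fell and 3 did not pass, both without and with GDF11, with a median log2 fold change of 1.31 without it, where 22.9% and 23.4% of all genes rose. MMP3 (stromelysin-1), a matrix protease, went from 5.54 ± 2.07 to 780 ± 595 CPM (n = 4 each, log2 fold change 7.13, edgeR adjusted p = 3.50e-05), with libraries from 71.4 to 1455 CPM after MmC. MMP8, the neutrophil collagenase, was at 0 to 0.0104 CPM without MmC and at 0.142 to 1.28 CPM after it (adjusted p = 9.33e-05). MMP8 passed the count filter only through the MmC+ libraries, so its place among the 8 partly follows from being tested.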
